A study of Mus musculus with 11 samples.

Results

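Among 6 wild-type libraries of spinal cord microglia made by RiboTag pulldown, 3 with a high level of Nefh were compared with 3 with a low level. Nefh encodes the heavy neurofilament subunit, a protein of large axons that microglia are not known to make. The libraries were grouped by that measured value: WT13, WT16 and WT17 had more than 700 CPM of Nefh, and WT8, WT9 and WT15 had less than 450, where CPM is a gene's count as a scaled share of its library's total. Of the 11 libraries in the series these 6 were used, and the 5 from the Kdm6a conditional knockout were not. All 6 were labelled as wildtype for Kdm6a, healthy normal, female and C57BL/6, and came from RiboTag mice with Tmem119-Cre/ERT2. Cre/ERT2 acts after tamoxifen, whose dose and timing are not given. Nor is an age or a batch, and nothing states that each library came from a separate animal, so the spread between libraries may be partly technical.

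In a RiboTag mouse, Cre recombinase switches on an epitope tag on the ribosomal protein Rpl22, and tagged ribosomes are pulled down with the mRNA they carry. Tmem119-Cre restricts the tag to cells that use the Tmem119 promoter, which in the spinal cord are mainly microglia. RNA of other cells can enter such a pulldown through unspecific binding. So can RNA that is not being translated, such as Neat1 and Malat1, long noncoding RNAs that stay in the nucleus. Neurofilaments and the spectrin and ankyrin scaffold are made by neurons whose cell bodies and axons fill the cord, and Gfap is the intermediate filament of astrocytes.

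Because the groups were defined by Nefh in the same libraries, every difference between them below is a description. No test of it was made, and a gene that follows Nefh across libraries is bound to differ. A gene is said to separate the groups when all 3 libraries of one lie above all 3 of the other. Differences are between the mean log2 CPM of the groups, high-Nefh minus low-Nefh. Levels are listed in the order WT8, WT9, WT15 for the low-Nefh libraries and WT13, WT16, WT17 for the high-Nefh ones. In RNA from a whole tissue pulldown, fewer cells of a type and less RNA per cell cannot be told apart.

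The libraries held 32768942 to 40943004 counts. WT13 had the largest total, yet it had the fewest genes with a count, 15974 against 16705 to 18349 in the other 5. It was at 0 for 1170 of the 16245 genes kept for comparison, against 166 to 641 in the others. Among low gene counts 83.9% were even numbers in WT13 and 73.5% to 80.9% in the other 5. Totals may therefore not reflect numbers of sequenced fragments, and the reason for the even counts was not tested. On a principal component analysis WT13 lay alone on the first component, which held 40.25% of the variance, at 141 against -37.7 to -16.7. High-Nefh libraries were also less alike than low-Nefh ones. The median absolute log2 difference over genes was 0.330 to 0.410 within high-Nefh pairs, 0.225 to 0.291 within low-Nefh pairs and 0.306 to 0.487 between the groups. WT16 lay closer to each low-Nefh library, at 0.306 to 0.315, than to either WT13 or WT17.

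Nefh (ENSMUSG00000020396, chromosome 11, 4938754 to 4948064, minus strand, mm10) was at 314 (WT8), 440 (WT9) and 331 CPM (WT15) in the low-Nefh libraries. In the high-Nefh libraries it reached 961 (WT13), 742.5 (WT16) and 1273 CPM (WT17). Scaled by library totals alone, as the grouping was, the library just inside the high group was WT16 at 760 CPM and the one just outside was WT9 at 432 CPM. The group values of 362 ± 68.2 and 992 ± 267 CPM (SD, n = 3 each) carry a spread that the grouping itself narrowed.

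Map1a (ENSMUSG00000027254, chromosome 2, 121289600 to 121310832, plus strand), which encodes a microtubule-associated protein of mature neurons, was at 659, 1017 and 639 CPM in the low-Nefh libraries and at 2835, 1982 and 4526 CPM in the high-Nefh ones. Its difference was 1.96, and that of Nefh 1.44. Both genes put the 6 libraries in nearly the same order, with WT17 highest, WT13 and WT16 next and WT9 highest among the low-Nefh libraries. Map1a was the gene ranked 55 by mean level among all genes kept, so it was no trace transcript in any library.

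Gfap (chromosome 11) was at 322, 339 and 358 CPM in the low-Nefh libraries and at 562, 423 and 621.5 CPM in the high-Nefh ones, a difference of 0.64. Neat1 (chromosome 19) was at 144, 184 and 118 CPM against 325, 264 and 469 CPM in the same order, a difference of 1.23. Malat1, its neighbour on chromosome 19, was at 238, 193 and 95.5 CPM against 274, 284 and 380 CPM, a difference of 0.92. All 3 separated the groups, Malat1 by the narrowest margin, with WT8 close to WT13.

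**Figure D1:**
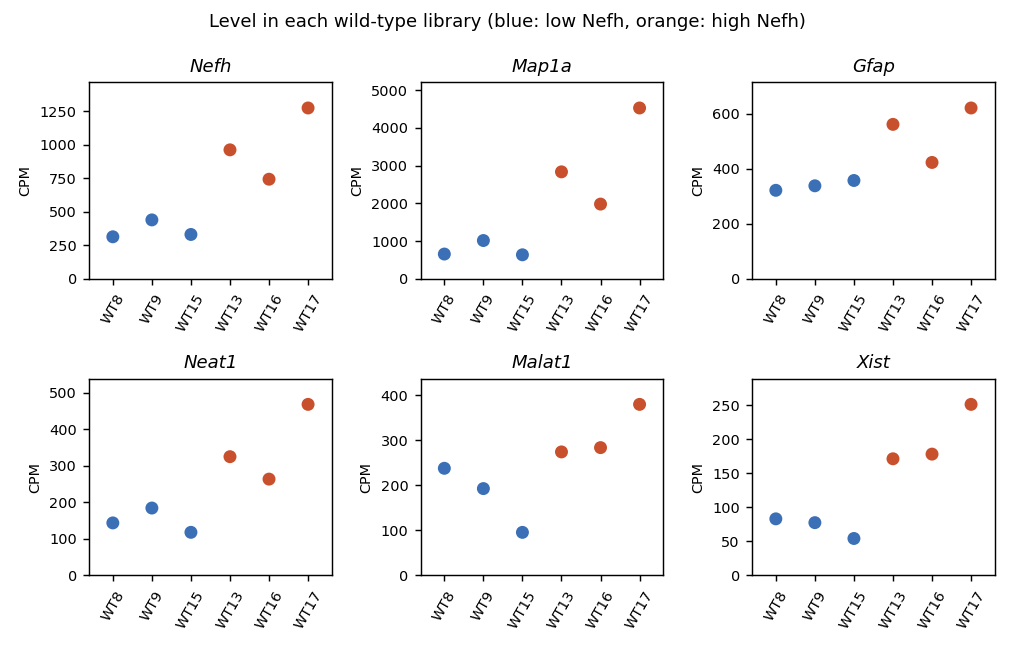
Level (CPM, linear axis from 0) of the 5 marker genes and Xist in each library; each point is 1 library, blue for low-Nefh and orange for high-Nefh. Map1a runs from 639 to 4526 CPM and orders the libraries much as Nefh does, while the Malat1 points of WT8 (238) and WT13 (274) lie close together.

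Over all 16245 genes kept, 2028 (12.5%) were higher in all 3 high-Nefh libraries and 1967 (12.1%) were lower in all 3. The differences were unequal in size. With the group means at least 1.5-fold apart, 1445 genes (8.90%) were higher and 339 (2.09%) lower, and at 4-fold 194 were higher and 88 lower. The median difference over all genes was -0.040. Of the 1445 higher genes, 759 were highest in WT17, 551 in WT13 and 135 in WT16. Of the 339 lower genes, 237 were lowest in WT13, the library with the fewest genes detected; the part of detection in that count was not tested. With library totals in place of TMM scaling the median over all genes moved from -0.040 to 0.061.

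Lists of marker genes did not move as one, as the map of list medians by library shows. The axon and cytoskeleton list of neurons was higher in all 3 high-Nefh libraries, and so were nuclear-retained RNAs. Endothelial and pericyte genes were highest in WT13, Schwann cell and fibroblast genes were highest in WT17, and astrocyte genes stood only slightly above in WT16. The name "high carry-over" therefore covers libraries that differ in what they carry, and they are called high-Nefh here.

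**Figure D2:**
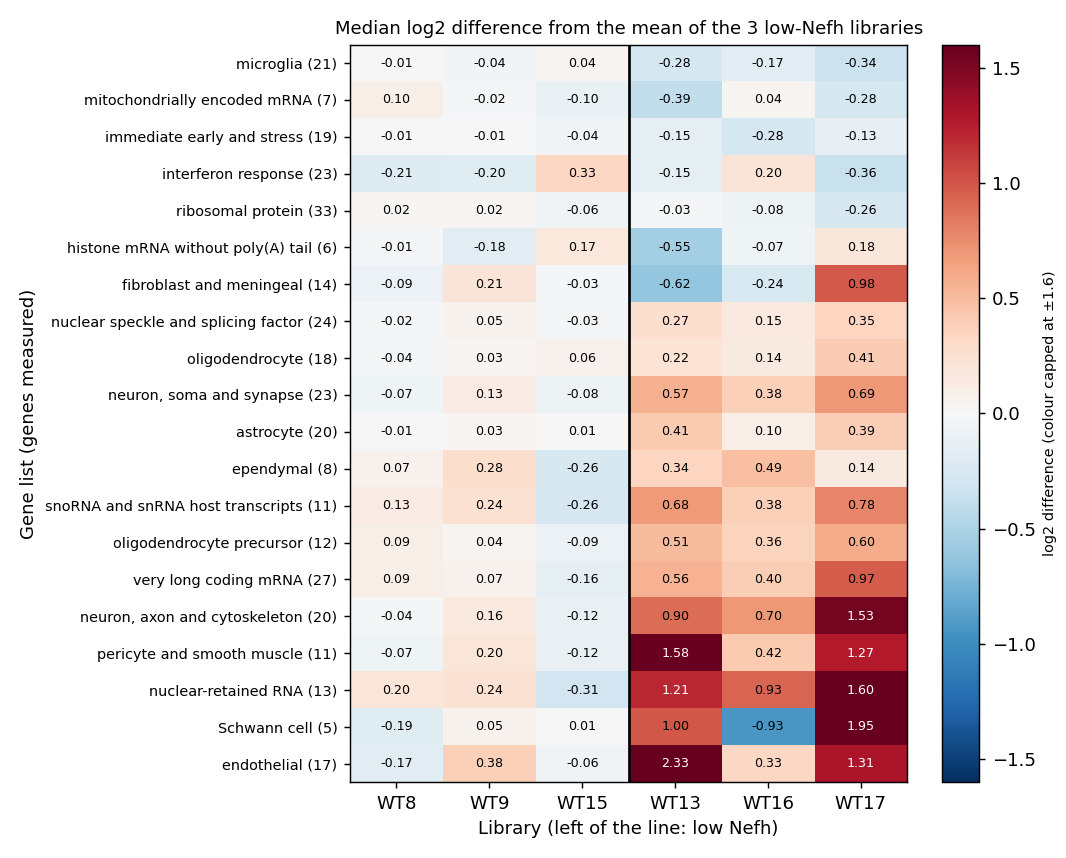
Median, over the measured genes of each list (number in brackets), of the log2 difference between a library and the mean of the 3 low-Nefh libraries; lists are ordered by their overall difference. The axon list reads 0.90, 0.70 and 1.53 in WT13, WT16 and WT17, the endothelial list 2.33, 0.33 and 1.31, and the microglia list -0.28, -0.17 and -0.34.

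Axonal and cytoskeletal genes of neurons made up the clearest group. Of 20 measured genes, 15 separated the groups upward and none downward, beside 12.5% and 12.1% of all genes, the shares to set beside each count of separating genes given below. Their median difference was 1.07 against -0.040 over all genes. Their summed level was 3952, 4808 and 3730 CPM in the low-Nefh libraries and 9928, 7887 and 13302 CPM in the high-Nefh ones, and Map1a was the largest part of the sum in each library. Nefh is counted in all of these values, and its separation was fixed by the grouping; without it 14 of 19 genes (73.7%) separated the groups upward, with a median of 1.02. Without WT17 the median of the 20 genes was 0.80.

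Within this list, genes of the spectrin and ankyrin scaffold under the axon membrane had some of the wider gaps. Ank3, which encodes the ankyrin that organises the axon initial segment, was at 72.1, 90.4 and 57.0 CPM in the low-Nefh libraries and at 174, 188 and 285 CPM in the high-Nefh ones, a difference of 1.55. Sptbn1, a beta spectrin found in many cell types, was at 259, 297 and 237 CPM against 726, 613 and 923 CPM, a difference of 1.5. Sptan1, its alpha spectrin partner, differed by 1.34, and Ank2 by 1.19. All of them separated the groups with room to spare.

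Motor proteins and other cytoskeletal genes followed. Kif1a, the kinesin that carries synaptic vesicle precursors, had a difference of 1.34, and Dync1h1, the heavy chain of cytoplasmic dynein, one of 1.13. Map1b and Map2, both microtubule-associated proteins, differed by 1.02 and 1.35. Other neurofilament subunits separated the groups as well. Nefm was at 285, 329 and 267 CPM in the low-Nefh libraries against 522, 405 and 587 CPM in the high-Nefh ones, a difference of 0.77. Nefl was at 278, 306 and 280 CPM against 503, 394 and 533 CPM, a difference of 0.72. Their differences are not set beside that of Nefh, which the choice of libraries enlarged.

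Several neuronal genes did not separate the groups at all. These were chosen after their values were seen. Stmn2, a microtubule regulator abundant in axons, was at 45.7, 47.3 and 43.7 CPM in the low-Nefh libraries and at 40.3, 45.9 and 46.9 CPM in the high-Nefh ones. Gap43, a growth cone protein, was at 29.3, 38.2 and 36.4 against 39.3, 41.3 and 30.2 CPM. Prph, the peripherin of motor and sensory neurons, was at 9.95, 12.5 and 9.89 against 9.53, 12.3 and 5.23 CPM. For each of these neuronal transcripts the values of the groups ran into each other.

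Genes of the neuronal cell body and synapse were split in the same way. Of 23 measured genes, 12 (52.2%, against 12.5% of all genes) separated the groups upward and none downward, with a median difference of 0.29. The summed level was 1497, 1708 and 1458 CPM in the low-Nefh libraries and 2186, 2015 and 2555 CPM in the high-Nefh ones. The list median ran from 0.24 without WT8 to 0.54 without WT13, and was 0.49 without WT9.

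Snhg11, a long noncoding RNA of neurons, was at 258, 329 and 180 CPM in the low-Nefh libraries and at 573, 559 and 784 CPM in the high-Nefh ones, a difference of 1.34. Gad1 and Gad2, the enzymes that make the inhibitory transmitter GABA, differed by 1.02 and 1.09 at low levels. Gad1 was at 9.32, 11.2 and 7.88 against 16.5, 17.6 and 23.6 CPM, and the Gad2 values of WT8, 6.35, and WT13, 6.39, all but touched. Syn2, a synapsin of synaptic vesicles, was at 22.7, 29.3 and 28.9 against 59.0, 38.9 and 65.0 CPM, a difference of 0.98.

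Core components of the vesicle fusion machinery did not follow. Snap25, the membrane-bound SNARE of nerve terminals, was at 101, 104 and 95.4 CPM in the low-Nefh libraries and at 91.0, 116 and 103 CPM in the high-Nefh ones, a difference of 0.04. Vamp2, the vesicle SNARE, was at 207, 204 and 189 against 198, 202 and 193 CPM, a difference of -0.016. Syp, the vesicle protein synaptophysin, differed by 0.07, and Thy1, a surface protein of projection neurons, by 0.19, both with overlapping groups. These genes, too, were picked after their values were seen.

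The differences of neuronal genes moved with their length. Over the 43 genes of both neuronal lists, the difference and the log2 exonic length of the gene had a Pearson correlation of 0.66 and a Spearman correlation of 0.69, or 0.70 and 0.74 without Nefh. The 22 shorter genes, up to 6542 bases, had a median difference of 0.27 and the 21 longer ones of 1.02. Nefh, which defined the groups, stood at 3994 bases well above genes of its length, while Vamp1, a vesicle SNARE gene with 10167 bases, stood well below at 0.22 with overlapping groups. Genes are not independent replicates here, since all points come from the same 6 libraries and longer genes also collect more counts; the correlation is a description. Over 15998 genes with an annotated length the correlations were 0.15 and 0.21. They were 0.53 and 0.51 over 20 astrocyte genes and -0.11 and -0.11 over 21 microglia genes.

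**Figure D3:**
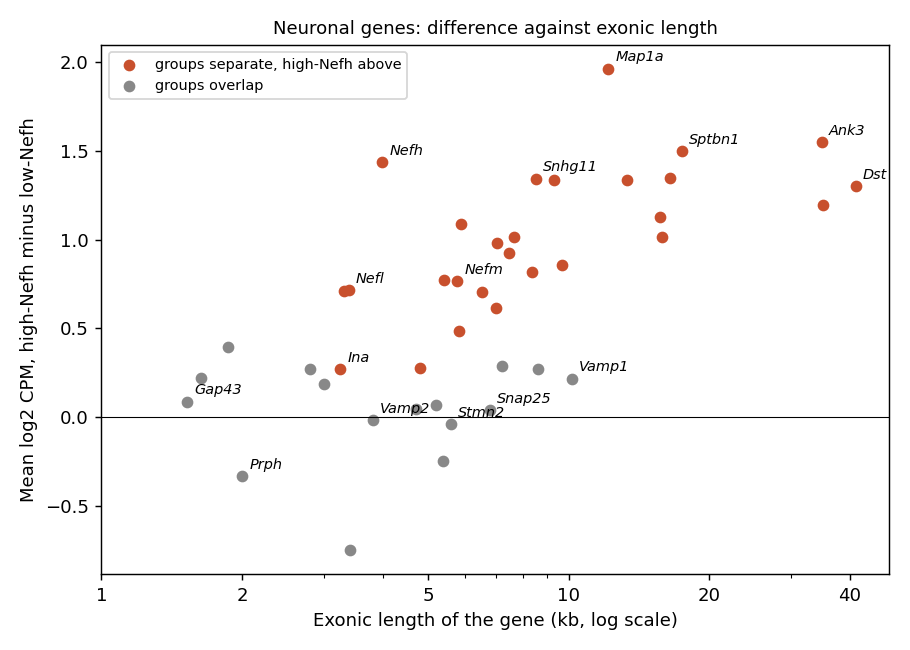
Each point is 1 of 43 neuronal genes: exonic length in kb (log axis) against the mean log2 CPM of the high-Nefh libraries minus that of the low-Nefh ones; orange genes separate the groups, grey genes overlap. Differences of long genes such as Ank3 (1.55) and Sptbn1 (1.5) lie above those of Vamp2 (-0.016) and Gap43 (0.09), and Nefh (1.44), which defined the groups, lies above genes of like length.

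Very long transcripts were compared as a list of their own, neuronal ones such as Bsn included. A list of 27 measured genes with very long coding sequences, most of them used by many cell types, had 17 (63%) that separated the groups upward and none downward, with a median difference of 0.65. Plec, the cytoskeletal linker plectin, was at 140, 127 and 110 CPM in the low-Nefh libraries and at 376, 245 and 499 CPM in the high-Nefh ones, a difference of 1.52. Bsn, a giant scaffold of the presynaptic terminal, was at 51.4, 52.8 and 48.8 against 146, 86.5 and 148 CPM, a difference of 1.27. Hectd4, a putative ubiquitin ligase, differed by 1.23 and Prkdc, the DNA-dependent protein kinase, by 1.33. Lrp1, a large endocytic receptor that microglia also make, did not follow, at 736, 684 and 653 against 645, 605 and 741 CPM.

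After each library was corrected for GC content and exonic length, the median of the very long list dropped to 0.095, with 8 genes upward and 4 downward. The axon list had a median of 0.60, with 15 of 20 genes upward, and the cell body and synapse list one of 0.14. The fit was made over all genes, where difference and log2 length had a Pearson correlation of 0.15, against 0.66 over the 43 neuronal genes. It may thus leave part of the length relation in the neuronal lists, and that relation was not computed after the correction. Over all genes the corrected counts were 1087 higher and 567 lower, so that the share of higher genes among those called went from 81% to 65.7%. A correction of this kind also removes any real difference that follows length, and whether the length relation reflects the RNA in the pulldown or library making was not tested.

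Over all genes, the decile of shortest exonic length, up to 1081 bases, had a median difference of -0.21, with 4.5% of genes separating upward and 13.9% downward. In the decile with the longest, from 9555 bases, the median was 0.16, with 26.2% upward and 5.94% downward. WT17 deviated from the mean of the 6 libraries by -0.077 for the shortest decile and 0.23 for the longest, and WT15 did the reverse, at 0.20 and -0.14. WT13 and WT16 changed less with length than WT17, at -0.10 to 0.026 and 0.061 to 0.097 at the ends. GC content split the high-Nefh libraries. From the decile of genes with the lowest GC to that with the highest, WT13 went from -0.20 to 0.14 and WT16 from 0.18 to -0.067. Processed pseudogenes, short copies of spliced mRNAs, had a median difference of -0.29 over 916 genes, and 321 lincRNAs one of 0.12.

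**Figure D4:**
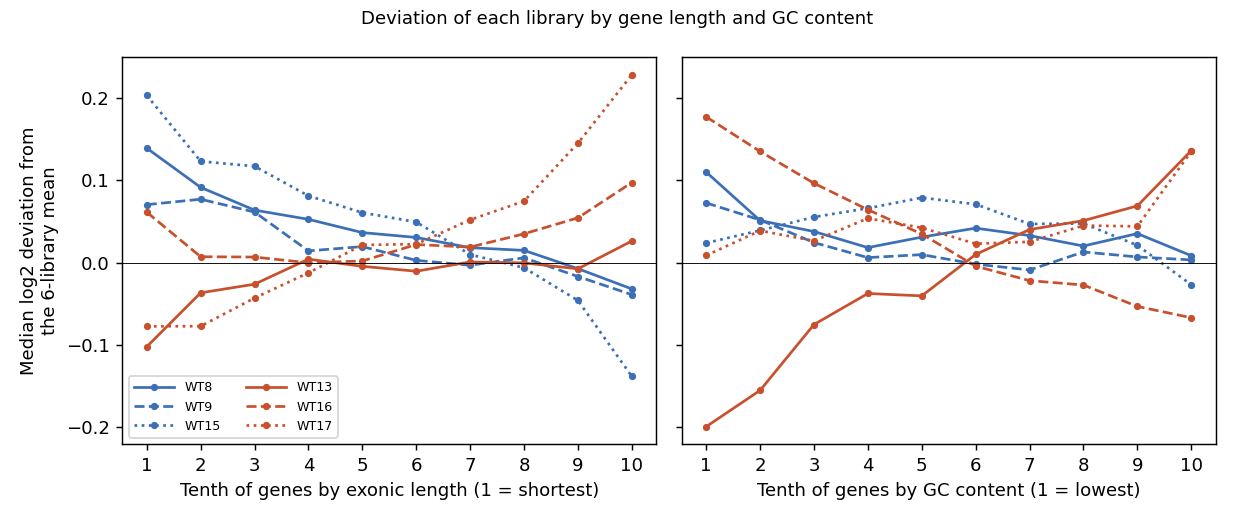
Median log2 deviation of each library from the mean of the 6, in deciles of genes by exonic length (left) and GC content (right); orange lines are high-Nefh and blue lines low-Nefh. WT17 ends highest for the longest genes (0.23) and WT15 lowest (-0.14), whereas WT13 and WT16 run in opposite directions with GC content.

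Astrocyte RNA was present in all 6 libraries and moderately higher in WT13 and WT17. Of 20 measured genes, 8 (40%, against 12.5% of all genes) separated the groups upward and none downward, with a median difference of 0.33. The summed level was 2483, 2545 and 2538 CPM in the low-Nefh libraries and 3385, 2848 and 3576 CPM in the high-Nefh ones, so that WT16 lay nearer to the low-Nefh libraries than to the other two. Fgfr3, a growth factor receptor of astrocytes, was at 42.3, 47.0 and 36.7 against 67.5, 56.1 and 95.3 CPM, a difference of 0.77. Slc4a4, a bicarbonate transporter, and Slc1a2, the main glutamate transporter of the cord, differed by 0.70 and 0.60. S100b and Slc1a3 ran slightly the other way, at -0.18 and -0.13, with overlapping groups.

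Oligodendrocyte genes were abundant, and their sum did not separate the groups. The summed level of 18 measured genes was 6360, 6669 and 6496 CPM in the low-Nefh libraries and 7311, 6199 and 7704 CPM in the high-Nefh ones, and the lowest value of all was that of WT16. Mbp, the myelin basic protein gene, was the most abundant member by counts and overlapped, at 3157, 3253 and 3170 against 3551, 2885 and 3957 CPM. Cnp, an enzyme gene of myelin, overlapped as well. The list had 7 genes upward (38.9%, against 12.5% of all genes) and 1 downward and a median difference of 0.24. Myrf, the transcription factor that drives myelination, was at 43.4, 37.0 and 36.4 against 68.0, 60.4 and 93.3 CPM, a difference of 0.90, and Mag, a glycoprotein of the inner myelin surface, differed by 0.74. Cryab, a small heat shock protein, was the gene that ran downward, at -0.30.

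Oligodendrocyte precursor genes were low, and 3 of 12 (25%) separated the groups upward, against 12.5% of all genes, on few genes. Ptprz1, a receptor phosphatase of precursors and astrocytes, was at 3.75, 2.52 and 1.57 CPM in the low-Nefh libraries and at 9.49, 9.03 and 16.1 CPM in the high-Nefh ones. Bcan, a proteoglycan of the matrix, was at 32.2, 40.5 and 32.3 against 70.0, 47.1 and 88.3 CPM. The list median of 0.54 went to 0.23 with the GC and length correction.

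Vascular RNA was highest in WT13. Of 17 endothelial genes 4 (23.5%, against 12.5% of all genes) separated the groups, all upward, and the list median was 1.42, or 0.83 without WT13. Several members were near the floor, such as Tie1 at 0.23 to 0.63 CPM and Vwf at 0.46 to 1.52 CPM in the low-Nefh libraries. The summed level, with Eng as its largest part, did not separate the groups. It was 290, 306 and 281 CPM in the low-Nefh libraries and 494, 284 and 311 CPM in the high-Nefh ones. Against the mean of the low-Nefh libraries the list stood at 2.33 in WT13, 1.31 in WT17 and 0.33 in WT16, the last no higher than WT9, a low-Nefh library, at 0.38. Flt1, a receptor for vascular endothelial growth factor, was at 5.32, 10.1 and 4.96 CPM in the low-Nefh libraries and at 44.4, 11.5 and 19.1 CPM in the high-Nefh ones. Ly6c1, a surface protein of brain endothelium chosen here after its values were seen, was at 12.8 CPM in WT13 and at or below 1.70 CPM in the other 5. Pecam1 and Eng, endothelial genes that microglia or other myeloid cells can also express, overlapped between the groups.

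As a list, genes of pericytes and smooth muscle showed the same order, with 3 of 11 upward (27.3%, against 12.5% of all genes) and a median of 1.11. Pdgfrb, the receptor that defines pericytes, was at 2.63, 6.32 and 3.61 CPM in the low-Nefh libraries and at 10.5, 8.53 and 15.8 CPM in the high-Nefh ones. Mcam, an adhesion molecule of mural and endothelial cells, was at 10.9, 9.63 and 8.61 against 24.3, 12.9 and 23.4 CPM. Rgs5, a pericyte gene, was at 34.0 CPM in WT13 and 12 CPM in WT9, so its groups overlapped. Per kilobase of exon the median gene of this list had 0.58 to 1.91 CPM, against 13.4 to 14.8 CPM for the median astrocyte gene.

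Some genes of peripheral nerve and connective tissue were highest in WT17. Prx, the periaxin of myelinating Schwann cells, was at 59.9 CPM in WT17 and 0.83 to 3.33 CPM in the other 5. It was selected for its value in WT17. Drp2, a dystrophin-related partner of periaxin, separated the groups at 12.6, 11.7 and 9.67 against 26.3, 22.2 and 40.6 CPM in the high-Nefh ones. Pmp22, another peripheral myelin gene, was at 464 to 585 CPM in every library and slightly lower in the high-Nefh ones, so it was not specific to WT17. Egr2 and Pmp2, further Schwann cell genes, were listed at 0 in all 6, which in this table can be a failed count.

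Fibroblast and meningeal genes did not separate the groups in either direction in any of 14 cases. WT17 stood 0.98 above the mean of the low-Nefh libraries over this list, while WT13 stood 0.62 below. Col1a1, the main collagen gene of connective tissue, was at 22.1, 20.4 and 28.2 CPM in the low-Nefh libraries and at 17.7, 16.4 and 49.0 CPM in the high-Nefh ones. Igf2, a growth factor made by the meninges, was at 36.6, 60.5 and 65.7 against 42.4, 51.2 and 76.9 CPM. The list median of -0.045 was 0.30 without WT13 and -0.46 without WT17.

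**Figure D5:**
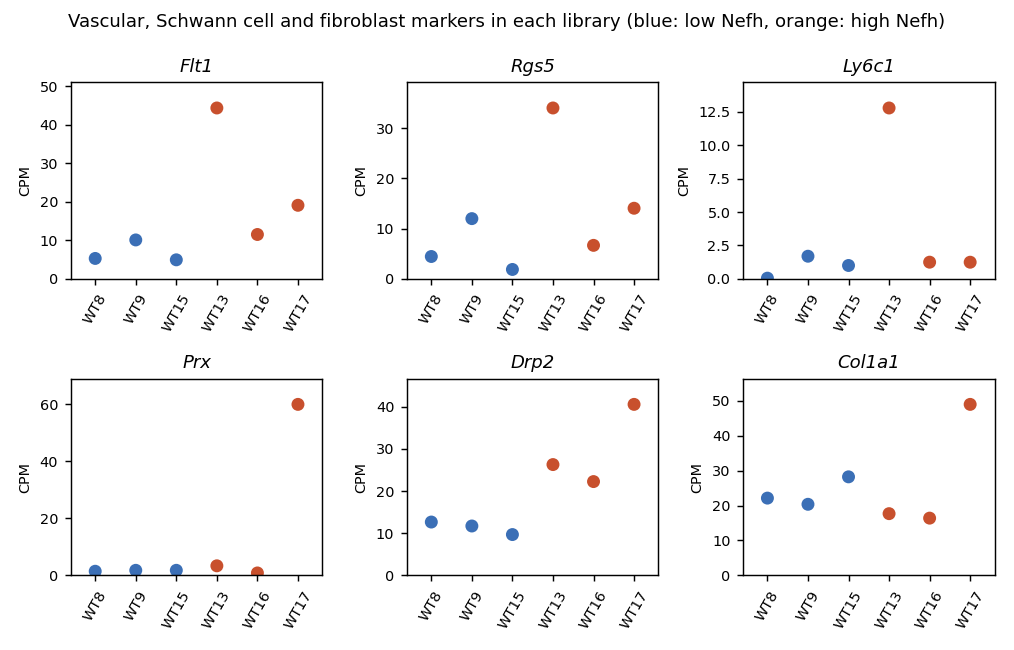
Level (CPM, linear axis from 0) of endothelial genes (Flt1, Ly6c1), the pericyte gene Rgs5, Schwann cell genes (Prx, Drp2) and the fibroblast gene Col1a1 in each library; each point is 1 library. Flt1, Rgs5 and Ly6c1 peak in WT13 (44.4, 34.0 and 12.8 CPM), and Prx, Drp2 and Col1a1 peak in WT17 (59.9, 40.6 and 49.0 CPM).

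Ependymal genes mark the lining of the central canal, and of 8 measured 2 (25%) separated the groups upward and 1 (12.5%) downward. Foxj1, the master factor of motile cilia, was at 14.0, 13.1 and 8.92 CPM in the low-Nefh libraries and 37.3, 17.1 and 28.8 CPM in the high-Nefh ones, while Dnah5 and Dnah11, dynein genes of motile cilia, did not exceed 3.31 CPM in any library. Ccdc153, a cilium gene, ran downward at 0.29, 0.70 and 0.60 against 0.28, 0 and 0.058 CPM. Of 12 monocyte and neutrophil genes 8 were listed at 0 in every library, S100a8 and S100a9 among them. Such zeros are not read as absence, since genes that every cell uses, Rps18, Hnrnpu and mt-Co2 among them, were listed at 0 as well. Ccr2, the chemokine receptor of inflammatory monocytes, was at 0.50 to 1.76 CPM in low-Nefh and 0 to 0.30 CPM in high-Nefh libraries. Cd79b, a B cell receptor component that microglia also transcribe, was at 21.5, 26.5 and 20.3 against 13.3, 17.1 and 15.2 CPM. The haemoglobin gene Hbb-bs did not exceed 1.55 CPM in any library. Border-associated macrophage markers Lyve1 and Pf4 were listed at 0 too, and Maf, shared with microglia, was at 578, 624 and 512 against 389, 504 and 457 CPM.

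Microglial genes were the most abundant of the cell type lists in all 6 libraries, as the label says, and were moderately lower in the high-Nefh ones. Of 21 measured genes 13 (61.9%, against 12.1% of all genes) separated the groups downward and none upward, and all 21 differences were below 0, with a median of -0.28. Their share of all counts was 9.14%, 9.12% and 9.30% in the low-Nefh libraries and 8.42%, 8.57% and 7.73% in the high-Nefh ones. Per kilobase of exon, the median microglial gene had 906 to 980 CPM in low-Nefh and 690 to 908 CPM in high-Nefh libraries, against 18.1 to 20.3 and 25.4 to 41.1 CPM for the median axon gene. With library totals in place of TMM scaling the median was -0.17. CPM values are relative, and whether higher levels of other RNA account for the lower microglial values was not tested.

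Tmem119, the gene that the Cre driver is named for, was at 1172, 1121 and 1147 CPM in the low-Nefh libraries and at 910, 905 and 881 CPM in the high-Nefh ones, a difference of -0.35. Mertk, a receptor for engulfing dead cells, had the largest difference of the list at -0.39, with 438, 425 and 459 against 270, 389 and 359 CPM. Sparc, a secreted matrix protein, and C1qc, a subunit of complement C1q, differed by -0.34 and -0.32. Fcrls, a receptor-like gene, overlapped, at -0.019. Rpl22, whose protein carries the tag, was at 90.3, 101 and 104 against 101, 98.3 and 87.5 CPM and did not separate the groups. Aif1, Trem2 and Laptm5, also microglial genes, were listed at 0 in all 6 libraries and were not used.

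Nuclear-retained RNAs were higher in the high-Nefh libraries almost as a group. Of 13 measured, 9 (69.2%, against 12.5% of all genes) separated the groups upward and none downward, with a median difference of 1.29, or 1.03 after the GC and length correction. Their summed level was 894, 971 and 590 CPM in the low-Nefh libraries and 1771, 1596 and 2356 CPM in the high-Nefh ones. Against the mean of the low-Nefh libraries the list stood at 1.21, 0.93 and 1.6 in WT13, WT16 and WT17, so that WT16 shared this feature more than it shared the astrocyte or vascular one. Neuronal noncoding RNAs such as Snhg11 and Miat are among its members, so the list and the neuronal lists are not independent.

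Xist, which coats the inactive X chromosome in every female cell, was at 83.0, 77.4 and 54.1 CPM in the low-Nefh libraries and at 171, 178 and 251 CPM in the high-Nefh ones, a difference of 1.49. Tsix, transcribed from the opposite strand of the same locus, was at 4.03, 2.81 and 3.83 against 10.1, 6.59 and 15.1 CPM. Since the strand setting of the counting is not given, reads of Xist and Tsix may not be told apart. Ftx, another noncoding gene of the X inactivation centre, was at 1.49, 1.81 and 1.19 against 4.32, 7.10 and 10.3 CPM, a difference of 2.16, the widest of the list. Jpx, from the same centre, did not follow, at 2.86, 5.97 and 3.08 against 1.13, 5.49 and 3.54 CPM.

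Miat, a noncoding RNA of neurons, was at 132, 150 and 113 CPM in the low-Nefh libraries and at 374, 258 and 388 CPM in the high-Nefh ones, a difference of 1.36. Mirg, from the imprinted cluster that also holds Meg3, differed by 1.37 at 3.27 to 6.38 against 10.3 to 18.8 CPM. Gas5, a host of small nucleolar RNAs, differed by 1.29, the median of the list, and is counted again among the host transcripts below. Retention in the nucleus was not measured here for Gas5 or any other member. Firre and 2610035D17Rik differed by 0.83 and 0.15 and Pvt1 by -1.19, all with overlapping groups and below 9 CPM. Meg3, Rian and Airn were listed at 0 in all 6. Retained RNAs of low level were thus not uniformly higher.

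Messages for nuclear speckle and splicing factors, whose own transcripts are often partly kept in the nucleus, showed a smaller difference, with 8 of 24 upward (33.3%, against 12.5% of all genes), 1 downward and a median of 0.24. With the GC and length correction the median of this list was 0.13, with 8 genes upward and 4 downward. Clk1, a kinase that phosphorylates splicing factors, was at 18.5, 18.8 and 14.0 CPM in the low-Nefh libraries and at 43.5, 32.0 and 34.6 CPM in the high-Nefh ones. Ccnl2 and Ccnl1, cyclins tied to splicing, differed by 0.96 and 0.83, and Srsf5, a splicing factor, by 0.83. Of 11 host transcripts of small nucleolar or nuclear RNAs 5 (45.5%) were upward, led by Snhg17 at 2.97, 2.37 and 3.58 against 17.2, 9.00 and 11.6 CPM. The median of these hosts, 0.50, was 0.26 without WT15.

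RNA of other compartments did not follow Nefh. Mitochondrially encoded mRNAs, which cytosolic ribosomes do not translate, summed to 6965, 5899 and 6936 CPM in the low-Nefh libraries and 5005, 6603 and 5592 CPM in the high-Nefh ones. Their median difference of -0.24 turned to 0.16 with the GC and length correction, and mt-Nd4 was the only one of 7 to separate the groups. WT13 and WT17 lay below all low-Nefh libraries in this sum, and WT16 lay among them. Histone messages without a poly(A) tail had a median of -0.067, which was 0.036 with library totals. Ribosomal protein genes had 8 of 33 downward (24.2%, against 12.1% of all genes) and a median of -0.097, which came to 0.0016 with library totals, and their many near-identical pseudogenes make such counts uncertain. None of these lists had a gene that separated the groups upward.

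Of 19 immediate early and stress genes 2 (10.5%) were upward, near the 12.5% of all genes, and 6 (31.6%) downward, against 12.1%, with a median of -0.20. Fos was at 0.74, 2.11 and 1.70 CPM in the low-Nefh libraries and at 4.46, 3.88 and 3.89 CPM in the high-Nefh ones, while Atf3, another stress transcription factor, ran downward at 50.5, 45.1 and 49.2 against 35.5, 41.1 and 30.9 CPM. Of 23 interferon response genes, which cells use against viruses, only Rsad2 separated the groups, at 1.05 to 1.57 against 1.80 to 2.44 CPM. WT15 and WT16 had the highest summed interferon levels, 491 and 498 CPM against 325 to 426 CPM in the other 4, so this programme cut across the grouping.

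The 12 genes with the widest upward gaps were of low level. Strip2, a regulator of the cytoskeleton, was at 0.057, 3.07 and 1.32 CPM in the low-Nefh libraries and at 10.1, 9.00 and 20.7 CPM in the high-Nefh ones, and the size of its fold depends on a near-zero value. Cpne7, a calcium-dependent membrane-binding protein, was at 0.86, 0.29 and 1.19 against 8.27, 4.47 and 7.35 CPM. Sphkap, a kinase anchoring protein of neurons, was at 4.12, 15.7 and 1.95 against 20.01, 27.5 and 28.1 CPM. Hspg2, the basement membrane proteoglycan perlecan, was at 2.69, 0.56 and 2.07 against 17.8, 3.73 and 14.1 CPM, the order that vascular genes showed. Pla2g3, Tmc4, Alox8, Ttc39a, Wnk3, Radil, Myo5b and Podxl, the last an endothelial list member, completed the 12, with differences from 2.24 to 2.64.

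Most of the genes with the widest downward gaps were lowest in WT13. Mrrf, a mitochondrial ribosome recycling factor, was at 8.21, 12.8 and 11.4 CPM in the low-Nefh libraries and at 0.66, 7.48 and 6.57 CPM in the high-Nefh ones. Cep41, a centrosomal protein, was at 10.5, 9.89 and 12.8 against 1.17, 6.98 and 5.87 CPM, and Map2k6, a stress kinase, at 11.7, 9.01 and 10.0 against 0.70, 8.23 and 8.74 CPM. Orc4, of the origin recognition complex, was low in both WT13 and WT17, at 2.35 and 2.32 against 6.77 CPM in WT16. Ctse and Emilin1 were lowest in WT17. Frg1, Cd300lb, Napepld, Irs3, Slc25a40 and Cenpf made up the rest, with differences from -1.88 to -1.59.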

How the data were processed

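Raw counts per Ensembl gene were deposited by the authors as 1 table of 39017 genes, of which the 6 wild-type columns were used. RNA was isolated with a Direct-zol kit and libraries were made with a KAPA stranded kit after mRNA enrichment, per the labels' protocols. The tools bcl2fastq 2.17, FastQC, Trimmomatic and the build mm10 are named, per the submitters' processing notes. Which aligner, counter, strand setting and annotation were used is not given in the sources used here. Symbols, coordinates, exonic lengths and GC contents are those of GENCODE M21, found for 98.4% of the genes kept.

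The groups, the 24 gene lists and the rule for named genes were chosen with earlier results of these data known. Genes with enough counts in at least 3 of the 6 libraries were kept (filterByExpr, minimum count 10, minimum total 15), which left 16245; 18092 genes were at 0 in all 6, 56 passed only through the 3 high-Nefh libraries and 30 only through the 3 low-Nefh ones. Counts were scaled by TMM to log2 CPM with a prior count of 2 (edgeR 4.0.16, limma 3.58.1, R 4.3.3). A gene was called when the groups did not overlap and their means were at least 1.5-fold apart; list members are counted without the fold. The procedure was tested on simulated data in which all libraries had the same spread and the groups were not chosen by a gene's level. That trial could not show how calls fare with an outlying library such as WT13 or with groups set by Nefh. The GC and length correction fitted natural splines with 4 degrees of freedom per library.

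Named genes are the 5 markers, the 12 widest non-overlapping gaps in each direction at a mean log2 CPM of 1 or more, up to 4 non-overlapping members of each list (or, with none, the 2 most abundant) and every measured nuclear-retained RNA. Other list members named were chosen after their values were seen. A few genes of the lists go unnamed in the text; their values remain in the list summaries. Values without Nefh were added after seeing the data.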

Additional observations from a re-analysis of the deposited data

Results flagged for a closer look

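Within the 6 wild-type libraries, 122 quantities (the named genes and the lists) were checked for a single library far from the others, by the distance to the next library as a part of the whole range. At a critical value of 0.625, chance flags about 1 in 20 of unselected, independent values, or 6.1, and 5 were flagged. Many of the named genes were chosen by their values in these same libraries. That rate therefore cannot tell whether the flags are more or fewer than chance gives. WT13 lay far below the other 5 for Map2k6, with a ratio of 0.873 and a log2 CPM of -0.39 against 3.05 to 3.55. It did so too for Mrrf, with a ratio of 0.771, for Cep41, with a ratio of 0.671, and for Tsc22d3, a glucocorticoid-induced gene, also at 0.671. Tsc22d3 was at 96.8 CPM in WT13 and 158 to 201 CPM in the others. WT9 lay far below for Snhg5, a small nucleolar RNA host, with a ratio of 0.69 at 1.46 CPM against 4.05 to 6.36 CPM.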

How the results depend on the processing

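Of 99 named genes under 10 alternatives each, 969 of 990 values moved by less than the spread between libraries. Among the named genes that separated the groups, 1 value changed sign: mt-Nd4, at 0.058 with the GC and length correction. Changes of sign were not counted for named genes whose groups overlapped. The count of higher genes, 1445, was 824 at a mean log2 CPM of 3 or more, 839 at 2-fold and 1603 to 2292 with 1 library left out. The count of lower genes, 339, depended more on the settings: it was 224 with library totals, 64 at a mean log2 CPM of 3 or more, 189 at 2-fold, 212 among protein-coding genes, 567 with the GC and length correction and 516 to 920 with 1 library left out. It was 209 when a gene had to pass the filter in all 6 libraries, an alternative chosen after seeing the data, under which the cell body and synapse median was 0.49. At a mean log2 CPM of 3 or more, 92.8% of called genes were higher, against 81% in the main count. Fewer libraries make non-overlap easier by construction. The axon median was 0.60 with the GC and length correction and 0.80 to 1.21 with 1 library left out; the cell body and synapse median was 0.24 to 0.54 with 1 left out, the very long list's 0.095 with the correction, and the microglia median -0.17 with library totals. Genes under a few CPM rest on few counts, and WT13 had many at 0. No paired analysis was possible because the groups share no replicate numbers.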
